A study of Mus musculus with 8 samples.

Results

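Border-associated macrophage transcripts were barely present in microglia sorted from mouse spinal cord, and the levels of each of the 8 marker genes overlapped between the genotypes. The set comprised 8 genes known as markers of these cells (Mrc1, Cd163, Lyve1, F13a1, Pf4, Cbr2, Cd209f and Clec4n), found by Ensembl identifier among the 54532 genes of the deposited count table. All 8 were in the table. The study compared spinal cord microglia of 4 wild-type females (WT 503, 504, 506 and 527) with those of 4 females carrying the knock-in labelled Cd11b-P2X4mCherryIN (KI 513, 526, 528 and 549), with 1 library per mouse, named by the mouse number. The knock-in concerns P2X4, an ATP-gated channel, and its name also holds CD11b, a myeloid surface protein, and the fluorescent protein mCherry. The labels give no disease, treatment or age for these mice, and do not say which cells express the knocked-in protein. Microglia were sorted as live CD11b+ cells with low CD45 and without Ly6C.

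Border-associated macrophages live in the meninges, in the spaces around blood vessels and in the choroid plexus, while microglia live in the tissue itself. Both are long-lived macrophages that express CD11b, and border-associated macrophages usually carry more CD45. They are known for scavenger and lectin receptors that take up proteins, glycans and debris from the fluids at the border of the nervous system. In bulk libraries, fewer cells of a type and less RNA per cell cannot be told apart.

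The libraries held between 45167483 and 54049801 reads on genes, and 3 reads, taken as the detection limit, equalled 0.0549 to 0.067 CPM (read counts relative to library size, with TMM scaling between libraries). Markers of the labelled cell type were abundant in every library. The ADP receptor gene P2ry12 stood at 8659 ± 604 CPM in the WT mice and at 8845 ± 557 CPM in the KI mice (SD, n = 4 per genotype), and Tmem119, a microglial surface protein gene, at 3006 ± 265 and 2415 ± 408 CPM. The genes in the knock-in's name had overlapping groups, with P2rx4 at 792 ± 43.5 and 858 ± 62.6 CPM and Itgam, the gene of CD11b, at 310 ± 14 and 314 ± 17.9 CPM. Neither level checks the genotype labels, because counts over whole genes do not separate a knocked-in sequence from the endogenous one. KI 528 stood apart from the other libraries in several blood and border cell markers, given at the end, and the members' fold changes, ranges and summed levels are given without it as well where it sets them.

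Of the receptors, only the mannose receptor gene Mrc1 was measured well above the detection limit in every mouse. Mrc1 (ENSMUSG00000026712, mm10 chromosome 2, 14229392 to 14332057, plus strand) encodes CD206, an endocytic receptor for glycans and collagen. It was read at 2.85, 2.4, 4.89 and 3.35 CPM in WT 503, 504, 506 and 527, and at 3.21, 2.82, 5.9 and 6.06 CPM in KI 513, 526, 528 and 549. The values came from 112 to 327 reads per library. KI 528, KI 549 and WT 506 were the highest libraries, and the groups overlapped. The range from the lowest to the highest library was 2.52-fold, the smallest of the 3 members with more than 3 reads in every library.

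Cd163, the scavenger receptor for haemoglobin bound to haptoglobin (ENSMUSG00000008845, chromosome 6, 124304656 to 124330527, plus strand), gave only 69 reads over the 8 libraries. WT 503, 504, 506 and 527 held 10, 3, 2 and 7 reads, and KI 513, 526, 528 and 549 held 2, 8, 6 and 31. The 31 reads of KI 549 correspond to 0.575 CPM (exact Poisson 95% interval 0.39 to 0.816 CPM, counting error only), and the other libraries lay between 0.0403 and 0.183 CPM. Lyve1, the hyaluronan receptor shared with lymphatic endothelium (ENSMUSG00000030787, chromosome 7, 110850607 to 110863239, minus strand), gave 79 reads. The WT libraries held 23, 14, 2 and 8 reads of it and the KI libraries 2, 16, 4 and 10, in the same order. The highest library was WT 503 (0.421 CPM), while WT 506 and KI 513 held 2 reads each, below the limit of 3 reads. In both genes the groups overlapped.

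The secreted factors and the enzyme of the set spanned wide ranges between mice. F13a1 encodes the A subunit of coagulation factor XIII, a transglutaminase that cross-links proteins and that monocytes also express (ENSMUSG00000039109, chromosome 13, 36867178 to 37050244, minus strand). It was read at 4.46, 1.12, 1.65 and 4.28 CPM in WT 503, 504, 506 and 527, and at 0.0893, 1.09, 7.36 and 1.89 CPM in KI 513, 526, 528 and 549. The KI group held both extremes, 4 reads in KI 513 and 332 reads in KI 528, an 82.4-fold range in CPM. Without KI 528 the range was 50-fold, up to WT 503. Of its 6739 exon bases, 74 are shared with the gene model Gm30489, and reads were counted without strand.

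Pf4, a chemokine stored in platelets and also made by border-associated macrophages (ENSMUSG00000029373, chromosome 5, 90772435 to 90773383, plus strand), was read at 0.475, 1.16, 1.01 and 0.674 CPM in the WT libraries. The KI libraries held 0.402, 1.73, 2.62 and 0.816 CPM, in the same order. KI 528 and KI 526 were highest and KI 513 was lowest, a 6.51-fold range (4.31-fold without KI 528), and the WT libraries lay between these. Cbr2, a carbonyl reductase (ENSMUSG00000025150, chromosome 11, 120729489 to 120732114, minus strand), was read at 2.03, 1.2, 0.725 and 0.476 CPM in the WT libraries. In KI 513, 526 and 528 it stood at 0.603, 1.54 and 3.5 CPM, and KI 549 held 0 reads (exact Poisson 95% upper limit 0.0684 CPM, counting error only). Without KI 528 the highest library was WT 503. KI 549 was the library with the most Mrc1 and Cd163.

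The lectin genes Cd209f and Clec4n were at or near the detection limit. Cd209f, of the DC-SIGN family (ENSMUSG00000051906, chromosome 8, 4102787 to 4105835, minus strand), gave 1 read in WT 506, 1 in KI 526 and 0 in the other 6 libraries. It belongs to a cluster of similar genes, so that even these reads are uncertain. Clec4n, a receptor for fungal mannans (ENSMUSG00000023349, chromosome 6, 123229843 to 123247021, plus strand), gave 3, 0, 0 and 0 reads in WT and 2, 6, 0 and 3 in KI. KI 526 was the only library above 3 reads (0.113 CPM), so no fold change is given for either gene.

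**Figure D1:**
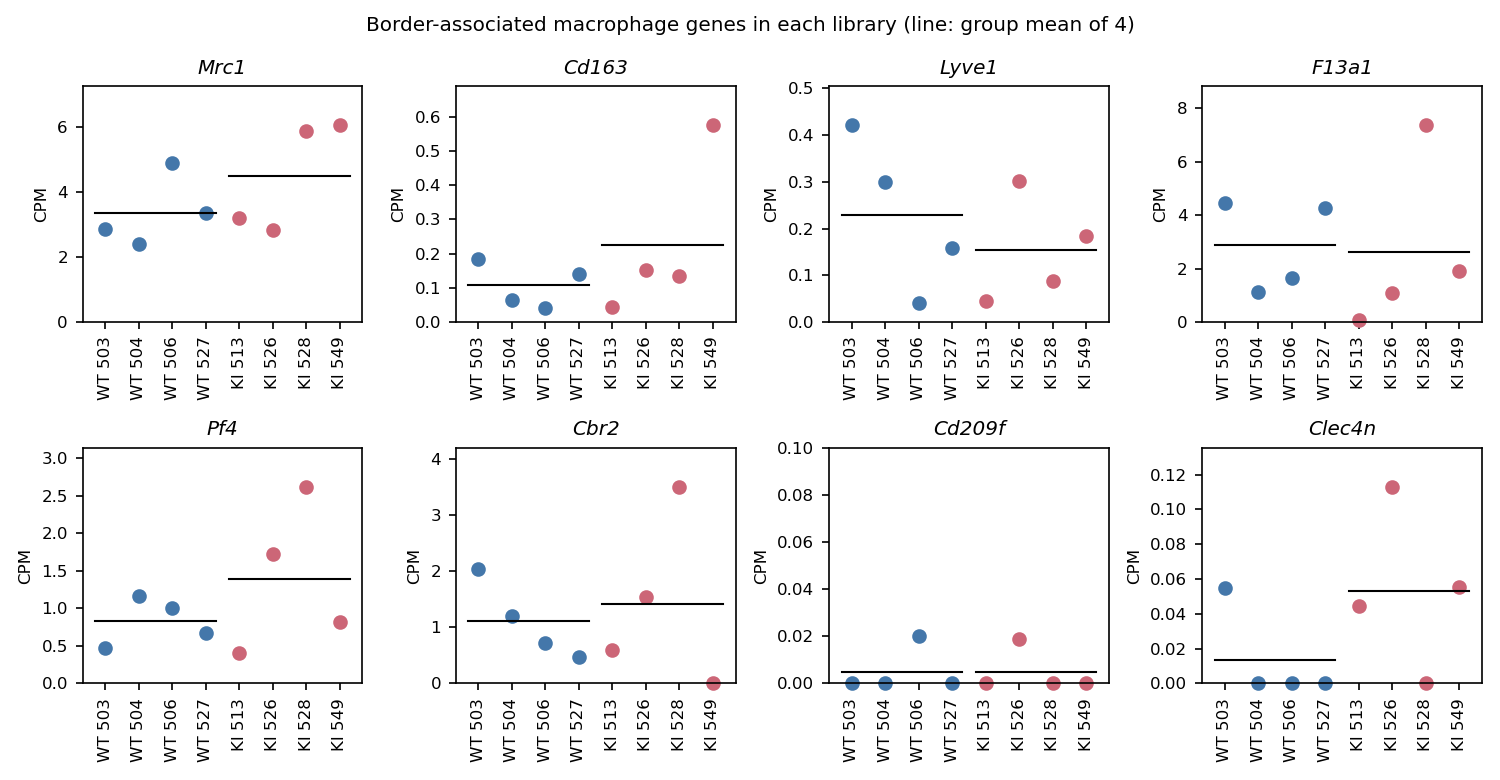
Level of each border-associated macrophage gene in CPM (y axis, linear, from 0, a separate scale per gene) in the 8 libraries (x axis), with WT in blue, KI in red and a line at each group's mean. KI 528 is highest for F13a1 (7.36 CPM), Pf4 (2.62) and Cbr2 (3.5), KI 549 for Mrc1 (6.06) and Cd163 (0.575), and the groups overlap in every gene.

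The counts may not all be separate molecules. Low counts were mostly even, as they would be if both reads of a pair were counted, and every library's count of F13a1 and of Pf4 was even, as were 5 of the 8 counts of Mrc1. Counting intervals on reads would then be narrower than those for fragments. The biological coefficient of variation estimated by edgeR was 0.373 for Mrc1, 0.629 for Pf4, 0.884 for F13a1 and 1.04 for Cbr2. Its median was 0.473 over genes with a mean of 1 to 5 CPM and 0.261 over all genes tested, so Mrc1 varied less, and the other 3 more, than the middle gene of their range of abundance.

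Per length, every member was far below the microglial genes. In RPKM (CPM per kilobase of exon), Pf4 averaged 1.54, Cbr2 0.949, Mrc1 0.618 and F13a1 0.407 over the 8 libraries. Lyve1 averaged 0.0659 RPKM, Cd163 0.0304, Clec4n 0.0236 and Cd209f 0.00245. The range of each gene over the libraries overlapped that of its neighbour in this order, for F13a1 and Lyve1 through the 4 reads of F13a1 in KI 513. P2ry12 averaged 3438 RPKM, and Sall1, a transcription factor gene of microglial identity, 52.1. Mrc1 stood at 0.018% of the level of P2ry12 (0.0102% to 0.0278% in single libraries) and Pf4 at 0.0448% (0.0164% to 0.0958%). F13a1 reached 0.0288% in its highest library and 0.00039% in its lowest.

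**Figure D2:**
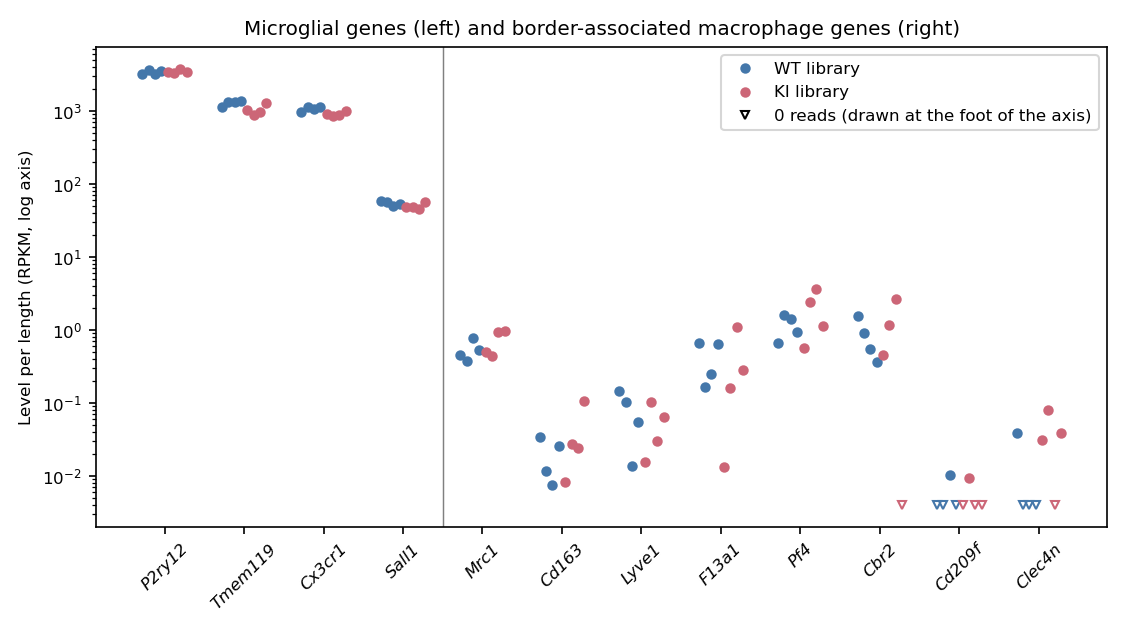
Level per length (RPKM, log axis) of 4 microglial genes (left of the line) and the 8 border-associated macrophage genes (right), 1 point per library, WT blue and KI red, with open triangles for 0 reads. Pf4 averages 1.54 RPKM where P2ry12 averages 3438. The range between libraries is 2.52-fold for Mrc1 and 82.4-fold for F13a1, against 1.57-fold for Tmem119 and 1.19-fold for P2ry12. The points of Cd163, Lyve1, Cd209f and Clec4n rest on 31 reads or fewer, so counting error adds to their spread.

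The comparison of the design asks whether the knock-in changes microglia, and here whether it changed the border-associated transcripts in the sort. No member passed the edgeR quasi-likelihood test. Of the 8 genes, 4 (Mrc1, F13a1, Pf4 and Cbr2) passed the filter on low counts and were tested, and 0 of these 4 had an adjusted p under 0.05, where 0 of all 17291 genes tested (0%) did. At an unadjusted p under 0.05 were also 0 of the 4, against 1347 (7.79%) of all genes, and in 0 of the 4 did the groups not overlap, against 855 (4.94%). By the other tools with an adjusted p under 0.05, DESeq2 called 139 genes (0.804%), the likelihood ratio test of edgeR 42 (0.243%) and limma-voom 0 (0%), and none of these calls was a member. DESeq2 gave no adjusted p for F13a1, Pf4 and Cbr2, so Mrc1 was the only member it could have called.

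The intervals of the fold changes were wide. Mrc1 had a mean of 3.37 ± 1.08 CPM over the WT mice and of 4.5 ± 1.72 CPM over the KI mice (SD, n = 4 per genotype), a log2 fold change of 0.41 (SE 0.35, edgeR adjusted p = 0.849). Its 95% interval ran from 0.777-fold to 2.29-fold, so a doubling lay within it. Pf4 averaged 0.828 ± 0.31 and 1.39 ± 0.988 CPM (log2 fold change 0.75, 95% interval −0.63 to 2.12, edgeR adjusted p = 0.842). Cbr2 averaged 1.11 ± 0.684 and 1.41 ± 1.53 CPM (0.35, −2.07 to 2.77, edgeR adjusted p = 0.971). F13a1 averaged 2.88 ± 1.74 and 2.61 ± 3.25 CPM (−0.14, −2.21 to 1.92, edgeR adjusted p = 0.985). Without KI 528 the log2 fold change of F13a1 was −1.48 and that of Cbr2 −0.63, while Pf4 stood at 0.25 and Mrc1 at 0.26, all short of the threshold. For Cd163 and Lyve1, which the filter removed, a fit without the filter gave log2 fold changes of 1.07 (edgeR adjusted p = 0.8) and −0.56 (edgeR adjusted p = 0.949). These data therefore give no call for any member in either direction, and they do not show that the levels were equal.

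**Figure D3:**
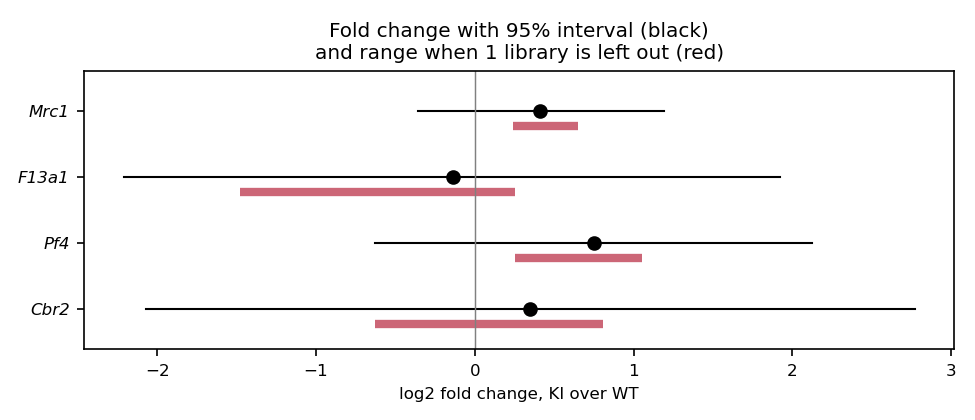
Log2 fold change of KI over WT (x axis) for the 4 tested genes, with the 95% interval in black and, in red, the range when each of the 8 libraries is left out in turn. All 4 intervals include 0, and the red range crosses 0 for F13a1 (−1.48 to 0.25) and Cbr2 (−0.63 to 0.81).

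Whether the genes rose and fell together from mouse to mouse was asked of the 6 genes with enough reads, in 15 pairs, on log2 CPM. Pearson's r was above 0 in 12 pairs and below 0 in 3, from −0.57 to 0.48. In an exact 2-sided permutation test over the 8 libraries, 0 of 15 pairs had p under 0.05 and the smallest adjusted p was 0.615 (Benjamini-Hochberg over the 15 pairs). By Spearman's rho 1 pair had p under 0.05 before adjustment and 0 after it. That pair was Cd163 and Lyve1, the genes with 69 and 79 reads, with a rho of 0.74 (exact permutation p = 0.0458, adjusted 0.688) and an r of 0.48 (exact permutation p = 0.233, adjusted 0.615). Without the 2 libraries farthest from the median of Cd163 its r was 0.56.

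Mrc1 and F13a1, the members with the most reads, had an r of 0.33 (exact permutation p = 0.451, adjusted 0.615) and a rho of 0.48 (exact permutation p = 0.243, adjusted 0.866). Within the groups, with each group's mean removed, their r was 0.52, and without the 2 libraries farthest from the median of Mrc1 it was 0.04. The lowest r was that of Cd163 and Cbr2, −0.57 (exact permutation p = 0.16, adjusted 0.615), with a rho of −0.05 (exact permutation p = 0.935, adjusted 0.977). It rested on KI 549, the library with 31 reads of Cd163 and 0 of Cbr2, and was 0.53 without it and 0.46 without the 2 farthest libraries. F13a1 and Pf4 had an r of 0.43 (exact permutation p = 0.298, adjusted 0.615) and a rho of 0.17 (exact permutation p = 0.703, adjusted 0.977). Their r was −0.03 without KI 513 and −0.92 without KI 513 and KI 528 (6 libraries, exact permutation p = 0.00139, adjusted 0.0208). These 2 libraries were the lowest and the highest in F13a1 and were left out for that. The p, the smallest that 6 libraries can give, therefore does not test the pair. With 1 library left out, the sign of r changed in 10 of the 15 pairs.

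**Figure D4:**
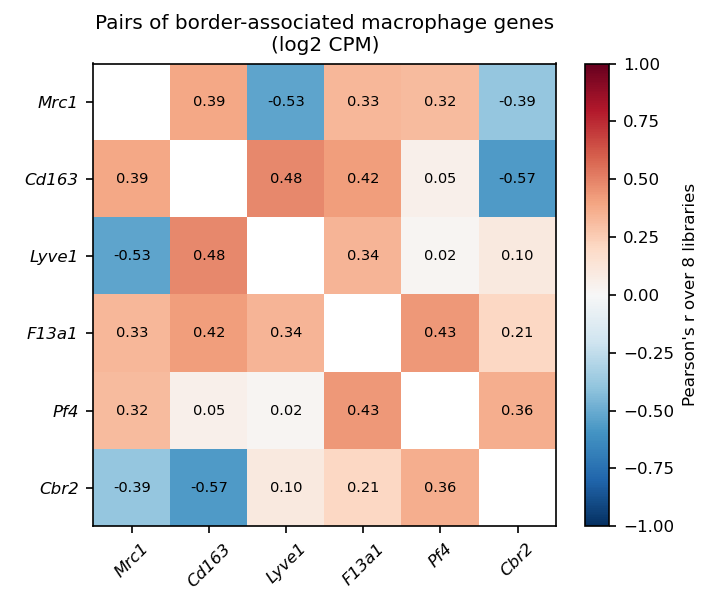
Pearson's r (colour and number) of log2 CPM over the 8 libraries for each pair of the 6 genes with enough reads. Values run from −0.57 (Cd163 and Cbr2) to 0.48 (Cd163 and Lyve1), and 0 of the 15 pairs passed the exact permutation test.

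The genes also stood in no fixed proportion to each other. The level per length of F13a1 relative to Mrc1 was 1.48, 0.439, 0.319 and 1.21 in WT 503, 504, 506 and 527, and 0.0263, 0.366, 1.18 and 0.295 in KI 513, 526, 528 and 549. WT 503, WT 527 and KI 528 held more F13a1 than Mrc1 per length, and the other 5 libraries less. For Cbr2 relative to Mrc1 the ratio ran from 0.682 in WT 527 to 3.42 in WT 503, with 0 reads of Cbr2 in KI 549. For Pf4 relative to Mrc1 it ran from 1.1 in KI 513 to 5.42 in KI 526. Together the 8 genes summed to 6.24 to 10.5 CPM in WT and 4.44 to 19.6 CPM in KI, lowest in KI 513 and highest in KI 528. Without KI 528 the highest KI library was KI 549, with 9.58 CPM.

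The 10 genes whose pattern was most like the members' mean (the mean over the 8 genes of log2 CPM centred over the libraries) included no gene of the wider marker list. Only 27 genes of that list were among the 13517 compared, so their absence from the leading 10 says little. The mean also weighs all 8 members equally, with Cd209f and Clec4n at or near the detection limit. Among the 13517 other genes that averaged 1 CPM or more, Mcph1, a gene of the DNA damage response, had the highest Pearson's r over the 8 libraries (0.99), followed by Otulin, a deubiquitinase gene (0.97). The other 8 of the leading 10 were Sult6b1, Gm5869, Phf10, Rpl29, Slc25a11, Pon3, Gm12411 and Mrto4, with r from 0.91 to 0.95. With 8 libraries, 133 genes had an r of at least 0.8 and 115 an r of −0.8 or lower. The members' own r with this mean ranged from 0.08 for Mrc1 to 0.8 for F13a1. Of a wider list of border-associated macrophage genes the closest was Wfdc17 (r = 0.77), at rank 178. These r values share libraries and depth and are a description.

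The wider list held 46 further genes known from border-associated macrophages, of which 32 passed the filter. Its genes ranged from abundant ones to ones as scarce as the members, with others between, such as Wfdc17 (3.5 CPM), Igfbp4 (9.42) and Dab2 (19.5). Which cells gave these reads was not tested. Among the highest per length were the tetraspanin gene Cd9 (759 RPKM), the apolipoprotein gene Apoe (445), Hpgd, a prostaglandin-degrading enzyme gene (323), and the lectin gene Clec4a3 (107). At the other end, 19 of the 46 had a mean under 1 CPM, among them Folr2, a folate receptor gene (0.444 CPM), and Siglec1, a sialic acid receptor gene (0.34 CPM). Ms4a4a and Vsig4 had 3 reads or fewer in every library.

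In the wider list 0 of 32 tested genes had an edgeR adjusted p under 0.05, and 17 had a log2 fold change above 0, with a median of 0.03 where that of all genes tested was 0. At an unadjusted p under 0.05 were 5 of 32, 4 higher and 1 lower in KI, against the 7.79% of all genes (3.23% higher and 4.56% lower). The 4 with higher means were Cd36, a lipid scavenger receptor gene (WT 3.15 ± 1.64 and KI 6.6 ± 3.19 CPM, log2 fold change 1.07, edgeR adjusted p = 0.634), Hpgd (519 ± 28 and 569 ± 20.4 CPM, 0.13, 0.625), Apoe (836 ± 75.6 and 1067 ± 249 CPM, 0.35, 0.604) and Cd9 (1475 ± 89.6 and 1626 ± 93.2 CPM, 0.14, 0.633). The 1 with a lower mean was Gas6, a bridging protein gene for the uptake of dying cells (74.9 ± 17.7 and 55.3 ± 2.88 CPM, −0.44, 0.592). The groups did not overlap in 1 of the 32, Hpgd, against 4.94% of all genes. In Colec12, a scavenger receptor gene that the filter removed, they did not overlap either, but barely and near the detection limit. The highest WT library held 0.0732 CPM (WT 503) and the lowest KI library 0.0753 CPM (KI 526). KI 549 stood at 1.69 CPM and the other libraries at 0.112 CPM or lower. The KI mean of Apoe rested in part on KI 528, which held 1418 CPM where the other KI libraries held 833 to 1037.

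Markers of other cells were measured beside the members, since some members are shared with them. All lymphatic endothelial genes but Prox1 had a mean under 1 CPM: Prox1 made 96.6% of that list's sum, and Pdpn and Ccl21a had 3 reads or fewer in every library. Of the platelet genes, Ppbp, another platelet chemokine gene, was at 4.32, 1.03, 3.26 and 1.78 CPM in WT 503, 504, 506 and 527 and at 1.43, 3.31, 0.31 and 0.667 CPM in KI 513, 526, 528 and 549. It was lowest in KI 528, where Pf4 was highest. Other platelet genes were not low there: the integrin gene Itga2b was at 0.621 CPM in KI 528 and at most 0.236 in the others, and the receptor gene Clec1b at 5.3 CPM, within its range of 1.13 to 6.59 over the other libraries. Summed over the 8 of 10 platelet genes with a mean under 10 CPM, KI 528 held 8.03 CPM, within the WT range of 7.78 to 10.3. Of the monocyte genes, Ccr2, a chemokine receptor gene, stood at 5.23 CPM in KI 528 and 6.19 in KI 549, the libraries with the most Mrc1, and between 1.79 and 4.09 CPM in the others. The rest of the list was mixed in KI 549. The proteoglycan gene Vcan (0.334 CPM) and the calcium-binding protein gene S100a6 (0.26 CPM) were lower there than in any other library. Cd44, the list's most abundant gene, was at 16.4 CPM in KI 549, 16.8 in KI 528, 17.6 in WT 504 and at most 12.4 in the others. The 11 of 12 monocyte genes with a mean under 10 CPM, which leave out Cd44, summed to 13.9 CPM in KI 549, within the WT range of 10.4 to 15.1. Ly6c2, the gene of the protein that the gate excluded, was between 0 and 0.436 CPM, with 0 reads in KI 528 and KI 549.

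KI 528 held the highest level of several markers, and the following were singled out after their values were seen. The lectin gene Cd209a was at 5.65 CPM in KI 528 and at most 0.0753 in the others, the basophil protease gene Mcpt8 at 3.39 and at most 0.0604, and the macrophage gene Ms4a7 at 4.72 and at most 1.2 CPM. The neutrophil granule gene Ngp was at 27.3 CPM in KI 528, 11.9 in WT 504, 9.37 in KI 513 and at most 0.274 in the other 5 libraries. KI 513, with the third highest Ngp, was the library lowest in F13a1 and Pf4. The limit of a mean under 10 CPM for the sums per library was chosen after the values were seen. The 11 of 12 monocyte markers ranged from 10.4 to 15.1 CPM in WT and from 12.5 to 27.2 in KI (15.3 in the next highest KI library). The 8 of 9 neutrophil markers ranged from 0.443 to 18.4 and from 0.222 to 52.1 CPM (next 17.2), and the 7 of 7 mast cell and basophil markers from 0.282 to 1.15 and from 0.334 to 6.69 CPM (next 0.96), each highest in KI 528. The wider border-associated list, over 28 of its 46 genes, ranged from 30.9 to 57.1 CPM in WT and from 45.8 to 68.1 in KI, again highest in KI 528 (next 52.2). This was not a rise across the list. Of the 26 such genes with more than 3 reads in a library, 6 were highest in KI 528, 6 in WT 527 and 5 in WT 503. Markers of meningeal fibroblasts (8 of 8 genes, 10.1 CPM) and B cells (4 of 6, 2.86) also summed highest in KI 528. For B cells WT 503 was close at 2.54 CPM, and Ms4a1 gave 2.39 CPM of the sum in KI 528. Markers of neurons (7 of 7, 1.53), dendritic cells (9 of 11, 26.3) and blood endothelium (7 of 8, 1.46) summed lowest there. Some of this depended on the limit of 10 CPM. Over all genes of a list, dendritic cell markers summed lowest in WT 506 and blood endothelial ones in WT 503. Neutrophil and B cell markers then summed highest in WT 527. Of these lists, S100a4 (monocytes), Ly6g (neutrophils) and Cma1 and Mcpt4 (mast cells) had 3 reads or fewer in every library. The part of these cells in the levels of F13a1, Pf4 and Cbr2 in KI 528 was not tested.

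**Figure D5:**
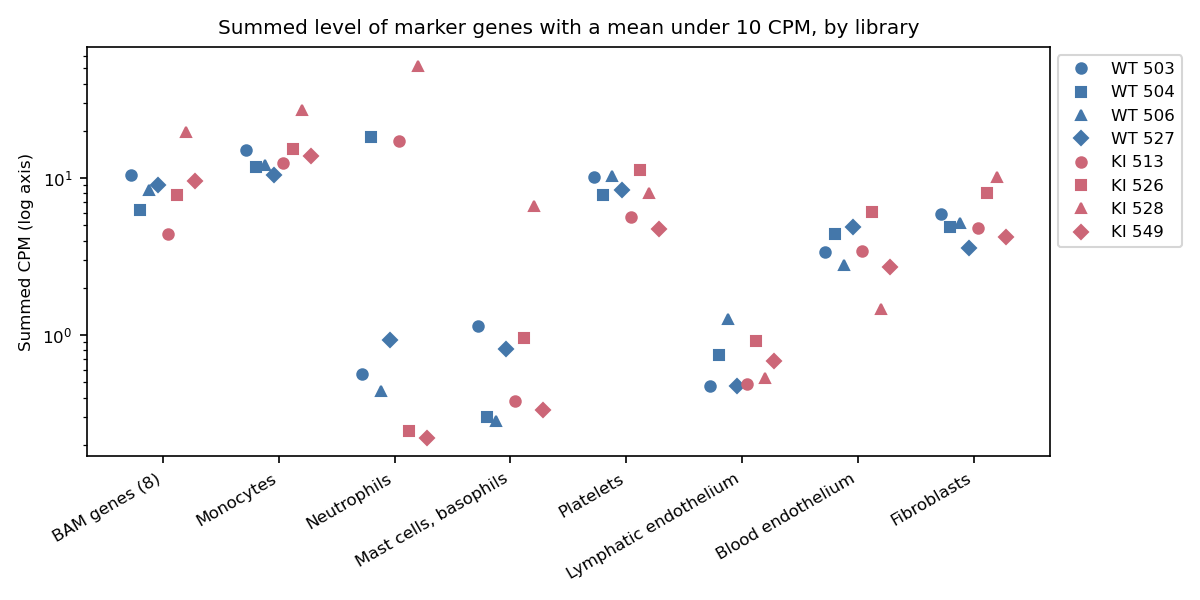
Summed CPM (y axis, log scale) of the border-associated macrophage (BAM) genes and of markers of other cells, over the genes of each list with a mean under 10 CPM, in the 8 libraries (WT blue, KI red). KI 528 (red triangle) is highest for the border-associated (19.6 CPM), monocyte (27.2), neutrophil (52.1) and mast cell and basophil (6.69) and fibroblast (10.1) lists, and lowest for blood endothelium (1.46).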

How the data were processed

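The labels give 1 library per mouse and the genotype and sex of each. The submitters' processing notes name featureCounts 2.0.3, edgeR, limma, R 3.6.0, SAMtools 1.9, STAR 2.7.5c and mm10, with no roles. The authors' deposited counts are, per the file headers, exon reads per gene from featureCounts, with paired input, primary alignments only and no strand option. Of the counts from 1 to 9, 68.9% to 70.8% were even in each library, as they would be if both reads of a pair were counted; this is not stated. Identifiers were paired with symbols through GENCODE (54409 of 54532), and 8 columns that match no label were not used. The authors also deposited FPKM values, used only as an alternative, as log2(FPKM + 1) for genes with a mean of at least 0.1, and a table of size-factor-scaled counts, not used here.

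The tests used edgeR 4.0.16 (R 4.3.3): TMM scaling, filterByExpr (minimum count 10, minimum total 15), robust quasi-likelihood test on group, and Benjamini-Hochberg adjustment over all 17291 genes, with calls under 0.05. The code was tested on simulated counts. DESeq2 1.42.0 and limma 3.58.1 were alternatives. Correlations used log2 CPM with a prior count of 2, in genes with a read in every library or a mean of at least 0.1 CPM. The members and the 18 gene lists (187 genes, all in the table) were chosen with earlier results of these data known. Named were the members, reference genes, the leading genes per length of the wider list with those at an unadjusted p under 0.05 or with 3 reads or fewer, and the 10 genes most like the members' mean. A few genes that this rule names are not reported here.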

Additional observations from a re-analysis of the deposited data

How the results depend on the processing

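No paired analysis was run, because the labels give no batch and nothing else that would pair a WT mouse with a KI mouse. The 0 calls over all genes became 139 with DESeq2, 42 with the likelihood ratio test and 1 (Gm49203) with limma on log2(FPKM + 1), and stayed at 0 in the other alternatives run (0 to 0 with 1 library left out). The log2 fold changes of Mrc1 and Pf4 kept their sign in all 17 alternatives, with 1 library left out from 0.24 to 0.65 and from 0.25 to 1.05, and none passed the threshold. F13a1 ranged from −1.48 to 0.25 and Cbr2 from −0.63 to 0.81 with 1 library left out, so both changed sign (F13a1 without WT 503, WT 527, KI 513 or KI 526, Cbr2 without KI 528), and limma-voom gave −1.36 for Cbr2; the cause was not tested. DESeq2 gave no adjusted p for F13a1, Pf4 and Cbr2, and the stricter alternative of a mean CPM of at least 1 kept all 4 genes. Of the pairs, 1 passed the permutation test without the 2 farthest libraries (F13a1 and Pf4, r = −0.92) and 0 in the other alternatives. For that pair the libraries were left out by their levels of F13a1 itself, so its p does not test the pair. Without the 2 farthest libraries 7 pairs had an r above 0, against 8 to 13 with 1 library left out. With 1 library left out, r ranged from −0.03 to 0.65 for F13a1 and Pf4 and from −0.66 to 0.53 for Cd163 and Cbr2, which stood at 0.46 without the 2 farthest libraries. Depth limits Cd163, Lyve1, Cd209f and Clec4n, which had 31 reads or fewer in every library.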
